A study of Mus musculus with 5 samples.

Results

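The junction genes examined were Cdh1, Cldn1, Cldn3, Cldn4, Cldn7, Ocln, Tjp1, Dsp and Jup, which build adherens, tight and desmosomal junctions, together with Esrp2, an epithelial splicing regulator. They were chosen by name from a textbook set of epithelial genes, with earlier results of these data known. Shares set against all genes below therefore only describe them. Every probe set that the platform annotation assigns to exactly 1 of them was taken. All 10 genes were measured, by 19 of 22626 probe sets, and 0 further probe sets named a member together with another gene. They were followed in ID8, an established line of mouse ovarian surface epithelial cancer cells. The parental cells were kept in DMEM that held 10% FBS (fetal bovine serum; 3 arrays, replicates 1, 2 and 3). The other cells were kept for 7 days in 10% ascites, the fluid that gathers in the abdomen of mice carrying ID8 cells (2 arrays, replicates 2 and 3). How long the FBS cells were cultured, and any serum beside the ascites, are not stated. All arrays come from 1 cell line, and the labels do not call the replicates separate cultures. The p values therefore reflect array-to-array spread that could be purely technical.

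Epithelial cells are held together by 3 kinds of junction. Adherens junctions are built on cadherins bound to catenins, tight junctions on claudins and occludin bound to ZO scaffolds, and desmosomes on desmosomal cadherins tied by plakoglobin, plakophilins and desmoplakin to keratin filaments. ESRP proteins direct epithelial splice forms of receptors and junction components, and SNAI and ZEB factors, which repress many of these genes, are raised when epithelial cells become mesenchymal. Ovarian surface epithelium is a modified mesothelium that holds keratins and vimentin together and has little E-cadherin.

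FBS replicates 1 and 2 were nearly alike (SD of the difference 0.117 over 12393 genes), whereas FBS replicate 3 differed from them by SDs of 0.427. For the pair of ascites arrays this SD was 0.239. Of the identity markers of ovarian surface epithelium and mesothelium, Wt1 read 11.83 to 12.75 in FBS and 10.83 to 11.17 in ascites, and keratin gene Krt8 read 13.13 to 13.46 and 12.13 to 12.66 (log2 signal, the unit of every level below). Krt7 read 8, 8.08 and 5.66 in FBS and 5.37 and 5.12 in ascites, and Cdh11 was dim in both (3.37 to 3.61). Of the 11 measured genes of that identity list, Krt18, Krt19 and Vim fell and 0 rose, where 2.59% of all genes fell. Of the 11, 10 were lower, and the median log2 change was -0.94. Without FBS replicate 3, 8 of the 11 fell, in a fit where 10.9% of all genes fell. Bnc1 (log2 change -3.19, limma adjusted p = 0.0605) and Upk3b (-2.30, adjusted p = 0.160) had the widest gaps, named after their values were seen. The exception was the mesothelial marker Msln, which read 12.45, 12.51 and 11.46 in FBS and 12.30 and 12.72 in ascites (log2 change 0.37, limma adjusted p = 0.623). Cdh11, counted as lower, moved by -0.003 only. Most of the identity list thus moved in the same direction as the brighter of the 10 genes studied. The part of that list in their changes was not tested. The values carry no detection call. As a guide to unexpressed genes, 32 markers of T and B cells, macrophages, endothelium, red cells, hepatocytes and neurons had means of 3.42 to 7.16, and 0 of 32 passed the test; their summed log2 signal was 169.68 to 171.06 in FBS and 170.85 to 172.04 in ascites. Their part in the results was not tested. Of 6 fibroblast markers 0 passed with all arrays and 3 (Col1a1, Dcn and Pdgfra) fell without FBS replicate 3. Dcn was bright (12.81 to 14.32 in FBS, 12.62 to 13.09 in ascites), and Col1a1 was lower without overlap (log2 change -1.44, limma adjusted p = 0.0683). Of the 32, the blood, endothelial and liver markers Ptprc (3.34 to 3.51), Pecam1 (4.09 to 4.23) and Alb (5.15 to 5.23) were low on all arrays. Some macrophage markers were brighter and varied more. Cd14 read 6.6, 6.7 and 7.74 in FBS and 7.63 and 7.15 in ascites, and Cd68 read 6.71, 6.59 and 5.35 against 6.88 and 6.59. The upper end of the range used below, 7.16, is the mean of Cd14, while the median of the 32 means was 5.45. Whether Cd14 is expressed in these cells was not tested.

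In ascites, ID8 cells had lower transcript levels of claudin 3 and Esrp2. Plakoglobin, desmoplakin and ZO-1 had lower means that did not pass the test, and for ZO-1 the interval of the change included 0. The probe sets of E-cadherin, occludin and claudins 1, 4 and 7 read no higher than the markers of other lineages in either medium. In limma's fit over 12393 genes, 2 of the 10 genes fell (Cldn3 and Esrp2) and 0 rose at a Benjamini-Hochberg adjusted p below 0.05, where 2.59% of all genes fell, 2.69% rose and 5.28% changed in either direction. At an unadjusted p below 0.05 there were 4 of the 10, against 24.2% of all genes. The 10 genes had a median log2 change, ascites minus FBS, of -0.28, against 0.00 over all genes. Of the 10, 9 were lower, as were 6140 of all 12393 genes. The 9 include Cldn1, Cldn4, Cldn7 and Ocln, whose small changes were at background signal. For 7 of the 10 genes no ascites array fell inside the FBS range or the reverse, against 38% of all genes. For 6 of the 10 the ascites arrays lay wholly below, against 19.4% of all genes. These 6 include Cldn1, at background signal, and Tjp1, whose lowest FBS value was 11.39 against a highest ascites value of 11.38. In bulk RNA, fewer cells with a transcript and less transcript per cell cannot be told apart.

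**Figure D1:**
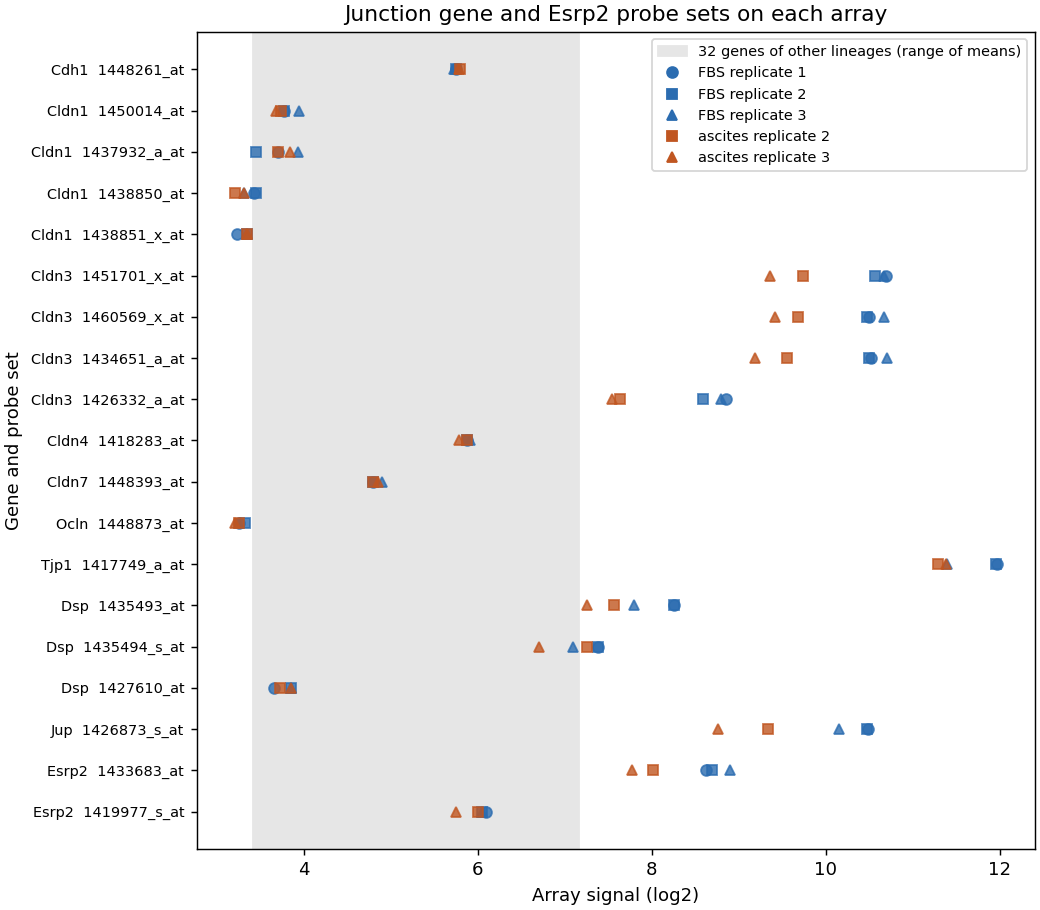
Log2 array signal (x axis) of the 19 probe sets (y axis), with FBS arrays in blue, ascites arrays in orange and the replicate number as the marker shape; the grey band is the range of mean signals of 32 marker genes of other lineages, 3.42 to 7.16. All 4 Cldn3 probe sets, Jup, and the brightest probe sets of Dsp and Esrp2 lay lower on both ascites arrays than on every FBS array, and 10 probe sets had both group means within or below the band.

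Both calls rested on every array but FBS replicate 3. The count of genes fallen among the 10 went to 0 when FBS replicate 1, FBS replicate 2 or either ascites array was left out, and then 0 of 12393 genes passed (limma, 2016 to 2748 at an unadjusted p below 0.05). It rose to 5 without FBS replicate 3 (Cldn3, Tjp1, Dsp, Jup and Esrp2), where 10.9% of all genes fell and 20.1% changed in either direction. The FBS spread then rested on the pair of nearly alike arrays. The sign of all 5 changes was negative in each of 12 alternative analyses.

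Among the tight junction genes, Cldn3 encodes claudin 3, a sealing claudin. Its brightest probe set (1451701_x_at) read 10.69, 10.56 and 10.67 in FBS and 9.74 and 9.36 in ascites. The groups were well apart, and FBS replicate 3 lay between the other FBS arrays. Cldn3 fell 2.13-fold (log2 change -1.09, SE 0.13, 95% confidence interval -1.45 to -0.73, limma adjusted p = 0.0332). The range of the change was -1.28 to -0.90 with any 1 array left out, and the adjusted p ran from 0.0130 to 0.275 over the 12 alternatives.

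Cldn3 was also read by 3 other probe sets, which do not all share the same design. In Affymetrix names, probes of an x_at set may match other genes, while those of an a_at set match several transcripts of 1 gene. Set 1460569_x_at fell by 1.0 on the log2 scale, 1434651_a_at by 1.20 and 1426332_a_at by 1.16. In limma's fit over all 22626 probe sets each of the 4 passed (adjusted p 0.0223 to 0.0350), where 1.96% of all probe sets fell and 4.34% changed in either direction. Set 1426332_a_at read 8.85, 8.59 and 8.79 in FBS and 7.63 and 7.54 in ascites. The sets target 1 transcript on the same RNA and are not independent measurements.

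Cldn4, the neighbour of Cldn3 on chromosome 5 with 0 protein-coding genes between them, encodes another sealing claudin. It read 5.88, 5.88 and 5.91 in FBS and 5.88 and 5.79 in ascites, with overlapping groups (log2 change -0.06, SE 0.05, 95% confidence interval -0.20 to 0.09). This probe set lay within the range of the other-lineage markers, and no expression of Cldn4 can be read from it. The difference between the neighbours was not tested.

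Because the repressors SNAI and ZEB bind E-boxes of the form CAGGTG, the promoters of the junction genes are shown for Cldn3 and its neighbour Cldn4, and for the desmosomal genes Dsp and Jup. RefSeq windows of 300 bases (250 before to 50 from the start site, build GRCm38.p6) matched 8 of the 10 genes by symbol, with Cdh1 and Esrp2 not matched. Each sequence is 5′ to 3′ on the gene's strand, and capitals mark E-boxes, CAGGTG or its reverse complement CACCTG. Cldn3 is at chr5:134985964-134986263 on the plus strand, Cldn4 at chr5:134946885-134947184 on the minus strand, Dsp at chr13:38151044-38151343 on the plus strand and Jup at chr11:100397741-100398040 on the minus strand.
Cldn3: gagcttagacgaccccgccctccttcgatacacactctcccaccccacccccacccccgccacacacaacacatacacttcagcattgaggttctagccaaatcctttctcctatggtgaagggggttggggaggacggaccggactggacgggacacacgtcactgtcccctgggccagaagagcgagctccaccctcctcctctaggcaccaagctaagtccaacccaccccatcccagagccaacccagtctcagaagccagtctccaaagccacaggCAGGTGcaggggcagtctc
Cldn4: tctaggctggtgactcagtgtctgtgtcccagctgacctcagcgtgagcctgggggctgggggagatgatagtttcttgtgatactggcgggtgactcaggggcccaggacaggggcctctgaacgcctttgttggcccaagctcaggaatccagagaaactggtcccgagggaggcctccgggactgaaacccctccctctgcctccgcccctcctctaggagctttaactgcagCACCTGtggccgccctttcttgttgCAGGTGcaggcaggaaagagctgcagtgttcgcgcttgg
Dsp: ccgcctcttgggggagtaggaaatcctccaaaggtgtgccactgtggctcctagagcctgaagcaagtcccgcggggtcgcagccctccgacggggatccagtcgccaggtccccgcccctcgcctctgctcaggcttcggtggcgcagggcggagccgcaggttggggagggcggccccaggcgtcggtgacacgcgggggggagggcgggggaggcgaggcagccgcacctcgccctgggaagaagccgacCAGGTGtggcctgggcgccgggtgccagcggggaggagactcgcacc
Jup: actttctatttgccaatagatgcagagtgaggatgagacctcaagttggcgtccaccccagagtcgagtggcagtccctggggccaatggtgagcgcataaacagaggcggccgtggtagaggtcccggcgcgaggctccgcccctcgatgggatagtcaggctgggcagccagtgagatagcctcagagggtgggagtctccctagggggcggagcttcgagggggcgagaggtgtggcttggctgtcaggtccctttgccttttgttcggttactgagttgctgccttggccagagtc

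The Cldn3 window held 1 E-box, at position 32 from the start site, and the Dsp window 1, at position 4. The Cldn4 window held 2, at positions -14 and 12, and the Jup window held 0. The 8 matched genes had 10 windows. An E-box of this form was in 6 of the 10 (of 5 genes, Cldn3, Cldn4, Cldn7, Ocln and Dsp), and in 20.2% of all 32851 windows. The Ocln windows overlap and share an E-box, so they do not count separately. The GC box bound by SP1 and KLF factors (GGGCGG, either strand) was in 9 of the 10 and in 35.7% of all windows. The GRHL motifs AACCGGTT and AACNNGTT and the KLF4-type box GGGTGTGG (either strand) were in 0 of the 10 member windows, against 0.146%, 4.204% and 3.56% of all windows. E-box letters were in windows of Cldn3, Dsp and genes at background signal (Cldn4, Cldn7 and Ocln), and in those of Jup, Tjp1 and Cldn1 there were none. Any part of these letters in the changes was not tested. These matches describe letters and are not binding sites.

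Tjp1 encodes ZO-1, the scaffold that links claudins and occludin to actin. It read 11.96, 11.95 and 11.39 in FBS and 11.29 and 11.38 in ascites. FBS replicate 3 lay at the level of the ascites arrays, only 0.01 above the higher of them. Tjp1 was 1.35-fold lower in ascites (log2 change -0.43, SE 0.21, 95% confidence interval -1.0 to 0.13) and did not pass (limma adjusted p = 0.315). Without FBS replicate 3 it was -0.62 (SE 0.05, adjusted p = 0.0142).

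The other tight junction members were dim. Ocln, which encodes occludin, read 3.26 to 3.33 in FBS and 3.21 to 3.26 in ascites. Cldn7 read 4.80 to 4.90 and 4.80 to 4.85. The brightest of 4 Cldn1 probe sets read 3.78 to 3.95 and 3.68 to 3.74, and its other 3 sets moved by -0.14 to 0.08. Changes of these genes lay between -0.13 and -0.01 (limma adjusted p 0.417 to 0.954).

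Cdh1, which encodes E-cadherin, the cadherin of epithelial adherens junctions, was measured by 1 probe set. It read 5.75, 5.75 and 5.73 in FBS and 5.80 and 5.79 in ascites. The ascites arrays lay above every FBS array by a very small margin (log2 change 0.05, SE 0.05, 95% confidence interval -0.07 to 0.18, limma adjusted p = 0.556). The signal lay within the range of other-lineage markers, so neither expression nor loss of E-cadherin transcript can be read from it.

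Jup encodes plakoglobin, a catenin shared by adherens junctions and desmosomes. It was measured by 1 probe set only (1426873_s_at). It showed the largest change in signal of the 10 genes, reading 10.48, 10.47 and 10.15 in FBS and 9.34 and 8.76 in ascites. The groups did not overlap, and the ascites arrays were 0.58 apart. The level was 2.49-fold lower in ascites (log2 change -1.32, SE 0.22, 95% confidence interval -1.91 to -0.73), just short of the threshold (limma adjusted p = 0.0522). It passed in 5 of 12 alternatives. Among these were the fits without the 25% dimmest genes (0.0372), with quantile normalization (0.0408), with probe sets averaged per gene (0.0481) and without FBS replicate 3 (-1.42, adjusted p = 0.0420). It did not pass without FBS replicate 1 (0.212) or FBS replicate 2 (0.223), or with a replicate block (0.268).

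Dsp encodes desmoplakin, which anchors keratin filaments to the desmosome. Its brightest probe set read 8.26, 8.26 and 7.80 in FBS and 7.56 and 7.25 in ascites, with FBS replicate 3 between the other FBS arrays and the ascites arrays. The level was 1.63-fold lower in ascites (log2 change -0.70, SE 0.20, 95% confidence interval -1.23 to -0.17) and did not pass (limma adjusted p = 0.126, and 0.0357 without FBS replicate 3). A second Dsp probe set read 7.38, 7.38 and 7.10 against 7.26 and 6.70, with overlap, and the dimmest set stayed at 3.66 to 3.85 on all arrays. With the probe sets averaged the change was -0.34.

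Esrp2 encodes an RNA-binding protein that promotes epithelial exons. Its brighter probe set read 8.62, 8.69 and 8.90 in FBS and 8.01 and 7.77 in ascites. FBS replicate 3 was the highest of the arrays and the groups did not overlap. Esrp2 fell 1.80-fold (log2 change -0.85, SE 0.13, 95% confidence interval -1.19 to -0.51, limma adjusted p = 0.0438). The dimmer probe set read 6.10, 6.05 and 6.05 against 6.0 and 5.75, a change of -0.19 at a signal within the range of other-lineage markers. With both averaged the change was -0.52 and the call was lost (adjusted p = 0.0581).

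**Figure D2:**
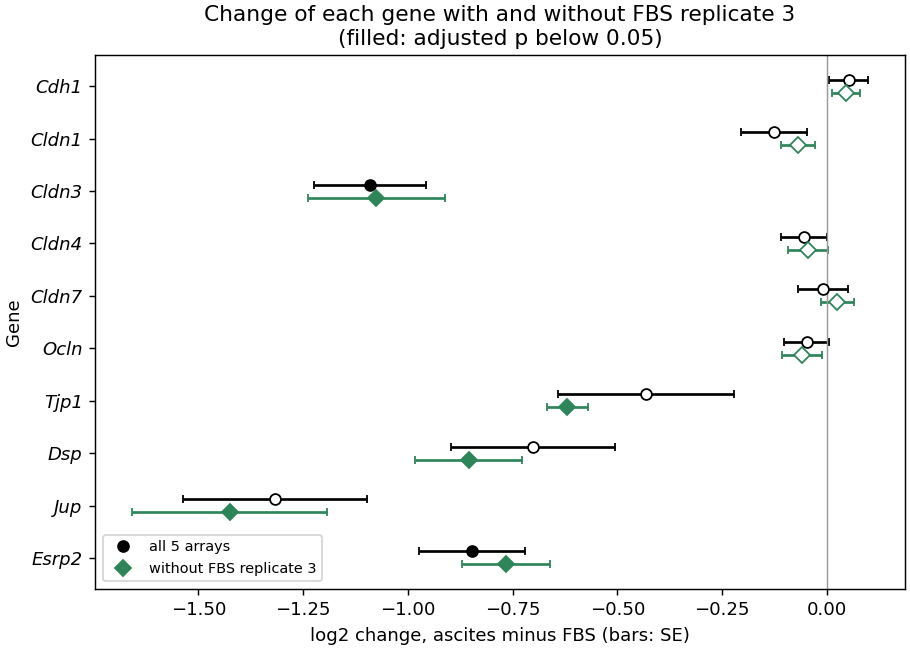
Log2 change, ascites minus FBS (x axis, bars are SE), of the 10 genes (y axis) in the fit of all 5 arrays (black circles) and without FBS replicate 3 (green diamonds); filled symbols have an adjusted p below 0.05. Cldn3 and Esrp2 were filled in both fits, Tjp1, Dsp and Jup only without FBS replicate 3, and the other 5 genes lay between -0.13 and 0.05 with all arrays.

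The position of FBS replicate 3 differed among the 5 brighter genes. Set against the mean of FBS replicates 1 and 2, FBS replicate 3 was shifted by 91.1% of the ascites shift for Tjp1, 53.8% for Dsp and 22.8% for Jup. For Cldn3 the share was -4.19% and for Esrp2 -32.0%, that is, away from ascites, slightly for Cldn3 and more for Esrp2. FBS replicate 3 thus resembled the ascites arrays for ZO-1 and in part for desmoplakin, and did not for claudin 3 and Esrp2. Why this array differed was not tested.

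Other components of the same junctions, taken from lists set by function, gave 1 rise and 0 falls among 38 measured genes (2.63%, against 5.28% of all genes). Without FBS replicate 3 there were 2 rises and 8 falls, in a fit where 20.1% of all genes changed and 10.9% fell. The gene that rose was Cgnl1, which encodes paracingulin, a cytoplasmic protein of epithelial junctions. It read 9.87 to 9.96 in FBS and 10.56 to 10.76 in ascites, a 1.67-fold rise (log2 change 0.74, SE 0.08, limma adjusted p = 0.0270). Its 2 dimmer probe sets moved by 0.10 and 0.01, and averaging them ended the call.

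Of the other tight junction genes 18 were measured, with 1 risen, 0 fallen and a median change of -0.05. The median of their mean levels was 5.775, within the range of other-lineage markers. Cldn15, a pore-forming claudin, read 11.94, 11.91 and 9.83 in FBS and 8.33 and 8.24 in ascites. It was 7.68-fold lower, with FBS replicate 3 in between (log2 change -2.94, SE 0.75, limma adjusted p = 0.108). Without that array the change was -3.64 (adjusted p = 0.0073). F11r, which encodes the adhesion molecule JAM-A, read 13.38, 13.36 and 12.26 against 12.17 and 12.15. FBS replicate 3 was here again near ascites, and the adjusted p was 0.307 with it and 0.0074 without it. Cxadr and Magi1 did not pass with all arrays (adjusted p 0.0970 and 0.0672) and passed downward without FBS replicate 3. Among these 18 genes 4 also fell with array weights and 1 with quantile normalization. In those fits 2612 and 888 of 12393 genes changed in either direction.

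Of the other desmosomal genes 11 were measured, and 0 passed with all arrays (limma, 4 at an unadjusted p below 0.05, against 24.2% of all genes). The median change was 0.05, with 5 of 11 lower. These 5 (Dsg2, Evpl, Pkp2, Pkp4 and Ppl) had means above the other-lineage markers, and their groups did not overlap. Dsc1, Dsc2, Dsc3, Pkp1 and Pkp3 had means within the range of those markers, and Perp was bright and higher. For 8 of the 11 the groups did not overlap, against 38% of all genes. The plakin Evpl (envoplakin) had the smallest p, reading 9.26, 9.44 and 8.66 in FBS and 7.87 and 7.34 in ascites (log2 change -1.51, SE 0.31, adjusted p = 0.0717). Its partner Ppl (periplakin) read 9.42, 9.40 and 8.55 against 8.20 and 7.40, also without overlap (adjusted p = 0.144). The desmosomal cadherin Dsg2 read 11.27, 11.28 and 10.22 against 10.15 and 9.98, so that FBS replicate 3 lay close to ascites. The plakophilin gene Pkp2 read 9.75, 9.70 and 8.95 against 8.65 and 8.64. Without FBS replicate 3, Evpl, Dsg2 and Pkp2 passed downward and Pkp1 upward, in a fit where 10.9% of all genes fell and 20.1% changed. Pkp1 read 5.57 to 5.85 in FBS and 6.16 to 6.26 in ascites, within the range of other-lineage markers. Perp, a desmosomal membrane protein and p53 target, was not lower (log2 change 0.49, SE 0.21, adjusted p = 0.264).

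Of the other adherens junction genes 9 were measured and 0 passed (limma, 1 at an unadjusted p below 0.05; median change -0.04). Vcl, which encodes vinculin, a link from catenins to actin, had the smallest p (log2 change -0.32, SE 0.06, adjusted p = 0.0681). The core catenins were bright and moved little: Ctnnb1 (β-catenin) read 13.33 to 13.40 in FBS and 13.12 to 13.49 in ascites, and Ctnna1 12.52 to 13.00 and 12.78 to 12.95. Ctnnd1 (p120 catenin) read 9.78, 9.63 and 8.84 against 9.14 and 9.0, with FBS replicate 3 the lowest of all (log2 change -0.35, adjusted p = 0.573, and -0.64 with adjusted p = 0.0317 without that array). N-cadherin (Cdh2) read 9.94 to 10.37 in FBS and 9.70 to 10.09 in ascites, with overlap (log2 change -0.30, SE 0.19, adjusted p = 0.425).

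**Figure D3:**
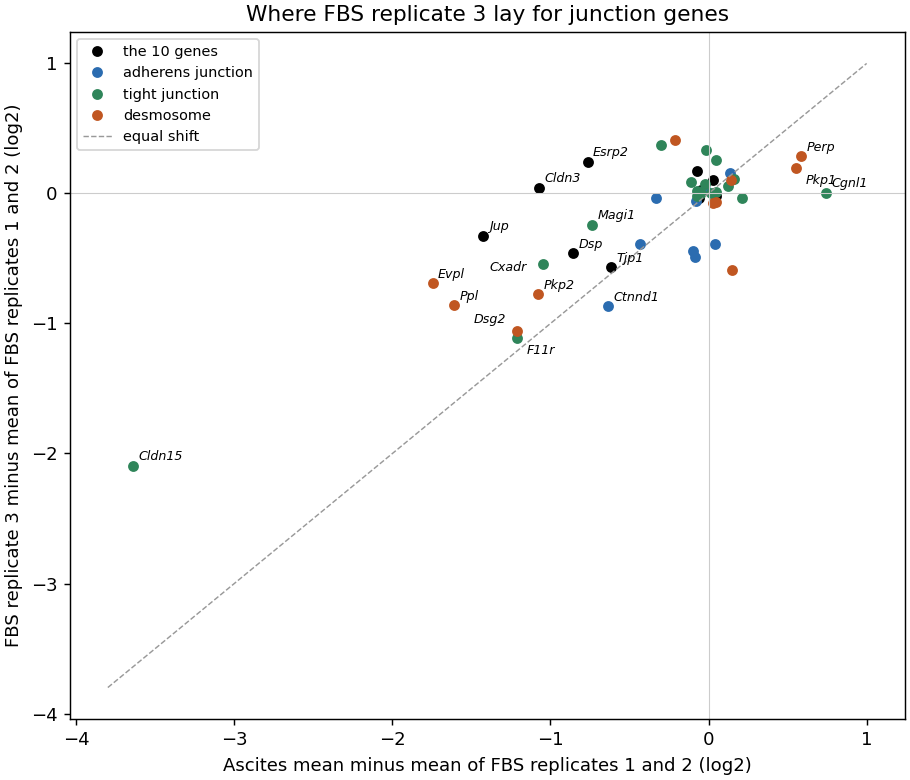
Each point is a gene of the junction lists; the x axis is the ascites mean and the y axis is FBS replicate 3, each minus the mean of FBS replicates 1 and 2 (log2), so both axes share those 2 arrays. Of 14 genes lower in ascites by at least 0.5, FBS replicate 3 lay between for 11, beyond ascites for 1 (Ctnnd1), and was not shifted down for 2 (Cldn3 and Esrp2). The same count was not made over all genes, so whether it is particular to junction genes was not tested.

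In the polarity complexes, which position the junctions along the cell's side, 1 of 14 measured genes rose and 0 fell with all arrays (7.14%, against 5.28% of all genes). Without FBS replicate 3, 2 rose (Prkcz and Pard6g) and 2 fell (Llgl1, by 0.83 on the log2 scale, and Pard6b, by 0.86). In that fit 20.1% of all genes changed and 10.9% fell. The gene that rose with all arrays was Prkcz, an atypical protein kinase C, at 5.38 to 5.39 in FBS and 5.70 to 5.73 in ascites (limma adjusted p = 0.0406). This signal lay within the range of other-lineage markers, its second probe set moved by -0.09, and averaging both ended the call. Among 9 epithelial surface proteins, such as the adhesion molecule gene Epcam and the protease gene St14, 0 passed (limma, 1 at an unadjusted p below 0.05, Spint1, with log2 change 0.28 and adjusted p = 0.174). Epcam read 5.61 to 6.05 in FBS and 5.71 to 5.85 in ascites, also within the range of other-lineage markers.

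Of 8 measured repressors of epithelial genes, 1 rose and 0 fell (12.5%, against 5.28% of all genes). Snai2, which encodes the zinc finger repressor SLUG, read 8.58, 8.53 and 8.36 in FBS and 10.16 and 10.03 in ascites. It rose 3.04-fold (log2 change 1.60, SE 0.09, 95% confidence interval 1.35 to 1.86, limma adjusted p = 0.0158). The change was 1.54 to 1.67 with any 1 array left out, although no gene passed without any of the arrays other than FBS replicate 3. FBS replicate 3 was the lowest array for Snai2, away from ascites.

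Zeb2 read 8.36, 8.18 and 7.56 in FBS and 8.96 and 9.13 in ascites, with FBS replicate 3 again lowest (log2 change 1.01, SE 0.27, limma adjusted p = 0.115, and 0.0301 without that array). Zeb1 read 8.34 to 8.51 and 8.66 to 8.79 (log2 change 0.30, SE 0.08, adjusted p = 0.115). Snai1 read 5.29 to 5.71 in FBS and 5.39 on both ascites arrays. Twist1 read 3.64 to 3.87 and 3.61 to 3.69. Tcf4 read 8.84 to 9.06 and 9.26 to 9.37 (log2 change 0.39, adjusted p = 0.0933), and 1 of its other probe sets rose in the fit of all probe sets (0.64, adjusted p = 0.0441). Twist2 read 7.05, 7.29 and 7.60 in FBS and 7.13 and 6.84 in ascites, with overlap (log2 change -0.33, limma adjusted p = 0.409). Of the 8 repressors, 4 had higher means in ascites and 4 lower. Among the lower ones, Snai1, Twist1 and Foxc2 lay within the range of other-lineage markers and Twist2 near its upper end. The higher ones were Snai2, which passed, and Zeb1, Zeb2 and Tcf4, which did not in the fit by gene. All 4 of the higher ones read above that range on every array, and their groups did not overlap.

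Of 12 measured epithelial transcription factors, 1 rose and 0 fell (8.33%, against 5.28% of all genes). Klf4, which is active in differentiating epithelia, read 11.68, 11.68 and 11.41 in FBS and 12.65 and 12.63 in ascites (log2 change 1.05, SE 0.11, limma adjusted p = 0.0245), and its other probe set rose by 0.98. Grhl2, an activator of Cdh1 and claudin genes, read 6.54 on all FBS arrays and 6.63 and 6.73 in ascites, and Ovol2, a repressor of Zeb1, read 5.04 to 5.23 and 5.23. Both lay within the range of other-lineage markers.

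**Figure D4:**
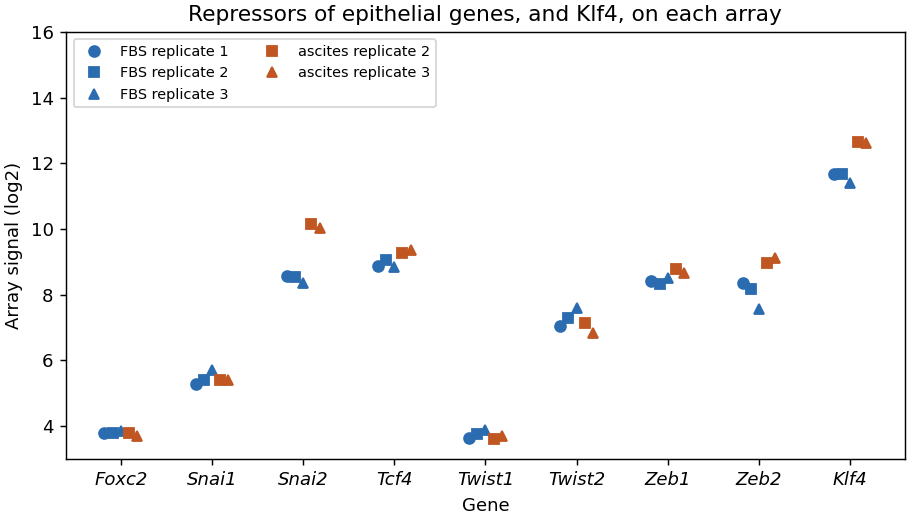
Log2 array signal (y axis) of 8 repressors of epithelial genes and of Klf4 (x axis) on each array, with FBS in blue, ascites in orange and the replicate number as the marker shape. Snai2 and Klf4 lay higher on both ascites arrays and passed the test, and Zeb1, Zeb2 and Tcf4 lay higher without passing. Twist2 had a lower mean in ascites with overlap, and Snai1, Twist1 and Foxc2 were dim.

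Of 8 measured genes of the ESRP list, 1 rose and 0 fell (12.5%, against 5.28% of all genes). Esrp1, the paralog of Esrp2, read 4.22 to 4.23 in FBS and 4.23 to 4.39 in ascites, so that Esrp2 was the ESRP gene with a signal above the other-lineage markers. Enah, an actin regulator with an ESRP-dependent exon, read 11.37 to 11.41 in FBS and 11.90 to 12 in ascites, and rose 1.47-fold (log2 change 0.56, SE 0.06, limma adjusted p = 0.0243). Its second brightest probe set rose by 0.90 and its 2 dimmer ones moved by 0.14 and 0.21. Cd44, whose variant exons depend on ESRP proteins, read 10.84, 10.92 and 11.97 against 12 and 12.08, so FBS replicate 3 lay with ascites (log2 change 0.80, SE 0.39, adjusted p = 0.326, and 0.0087 without it). Fgfr2 read 6.50 to 6.73 and 6.45 to 6.51. These probe sets measure genes and not the splice forms that Esrp2 controls.

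The genes whose centred profile over the 5 arrays lay nearest to that of Cldn3 were Alcam, Mboat1 and Irf1, with root mean square differences of 0.060, 0.066 and 0.075 on the log2 scale. Those nearest to Esrp2 were Bcl3, Brip1os and Ska2, with 0.034, 0.053 and 0.055. The same genes were nearest without the 25% dimmest genes. With 5 arrays, such likeness describes these arrays only.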

How the data were processed

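RNA of 5 samples was hybridised to Affymetrix mouse arrays, 1 array per sample. Per the submitters' processing notes the authors used Affymetrix Expression Console, whose version and way of summarising probes no source read here states. The authors' deposited values, 1 per probe set and array, were read as log2 signals because of their range. Array medians were 7.39 to 7.47, so no further normalization was applied. If the distributions were forced together, a change of total RNA cannot be seen. The number of arrays limits the precision.

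After removal of 64 control probe sets, 20380 of 22626 probe sets named 1 gene in the platform annotation, 691 several and 1555 none. Symbols were checked through a RefSeq table of GRCm38.p6 (20351 found, 0 changed). For each of 12393 genes the brightest probe set on average was used. The test was limma's (version 3.58.1, R 4.3.3; a two-sided moderated test with group as its one factor, 3 residual and 1.33 prior degrees of freedom) with Benjamini-Hochberg adjustment over all genes. A second fit took all probe sets. The calculation was tested on simulated data.

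The members and lists were chosen with earlier results of these data known. Named were all members, every list gene past the threshold or else the one of smallest p, the main regulators, and the 3 nearest profiles of each member that passed. Other list genes were named after their values were seen. Alternatives left out each array, averaged FBS replicates 1 and 2, added a replicate block, averaged probe sets, removed the dimmest 25% of genes, and changed the normalization, variance model or array weights.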

Additional observations from a re-analysis of the deposited data

How the results depend on the processing

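Directions of Cldn3, Tjp1, Dsp, Jup and Esrp2 were kept in all 12 alternatives, with changes of -1.28 to -0.90, -0.62 to -0.34, -0.86 to -0.34, -1.61 to -1.03 and -0.97 to -0.52. Cldn3 passed in 6 of the 12 and Esrp2 and Jup in 5. With 1 array left out, the count of fallen genes was 0 to 5 among the 10, that of fallen probe sets 0 to 7 among the 19 (5 with all arrays), and over all genes 0 to 1137 rose and 0 to 1357 fell (333 and 321 with all arrays). With FBS replicates 1 and 2 averaged as 1 sample, 0 of the 10 fell, and 0 genes rose and 0 fell (2128 at an unadjusted p below 0.05). Array weights, which gave FBS replicate 3 a weight of 0.186, gave 5 fallen among the 10, and 1241 risen and 1371 fallen genes. Replicate numbers 2 and 3 are shared by the groups, but the main fit did not take them as pairs. Deviations of same-numbered arrays from their group means had correlations of 0.03 and 0.04. The deviations of the 2 ascites arrays mirror each other, so these values cannot exclude pairing. With a replicate block, 0 of the 10 fell, and 0 genes rose and 0 fell (limma, 1891 had an unadjusted p below 0.05, and the smallest adjusted p was 0.268). The block leaves fewer residual degrees of freedom than the main fit, so lost calls do not show absent changes. With it the SE was lower for Jup (0.12, against 0.22) and Dsp (0.09, against 0.20). It was higher for Cldn3 (0.18, against 0.13), Esrp2 (0.17, against 0.13) and Tjp1 (0.23, against 0.21). Among the 19 probe sets of the 10 genes, signs turned only at background signal, while some bright genes of the other lists with small changes also turned (Ctnnb1 -0.25 to 0.12 and Ctnna1 -0.10 to 0.14 with 1 array left out). Cldn7 (-0.01 with all arrays) ran from -0.0333 without ascites replicate 3 to 0.025 without FBS replicate 3, with 0.0167 without ascites replicate 2, and was 0.0222 with array weights. The Dsp set 1427610_at ran from -0.06 without FBS replicate 1 to 0.0633 without ascites replicate 2, and the Cldn1 set 1437932_a_at from -0.045 without FBS replicate 2 to 0.195 without FBS replicate 3. Dropping the dimmest genes removed Cldn1, Cldn7 and Ocln.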
